A study of Solanum tuberosum with 72 samples.

Results

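The starch synthesis genes on a spotted potato cDNA array were described in leaves and roots of seedlings under cold, heat and salt. Spots were taken where the probe-to-gene table gave agpS2 (LOC102600909), agpS3 (LOC102582750), GBSS or SBE1 (LOC102596498) as symbol or RefSeq synonym. That rule found 4 genes in 5 clones, each printed at 2 spots, out of 11037 clones with a value on the array. GBSS had 2 clones, named here by the number of their first spot (134645 and 135253), and the other genes had 1 clone each (agpS2 140746, agpS3 142026, SBE1 158791). The 72 arrays compared leaves and roots of Solanum tuberosum, variety Gilroy, in 24 groups of 3 arrays. Seedlings from true potato seed, 5 weeks old and grown in floating boxes at 25 °C with days of 16 h light and 8 h dark, met cold (4 °C), heat (35 °C), salt (NaCl) or no stress for 3, 9 or 27 h. The labels give the salt dose as 150 mM in one field and 100 mM in another. A sample pooled 6 plants grown in 2 boxes, a reference combined 6 boxes, and the labels describe 3 independent experiments. The protocol separated roots from aerial tissue, which the labels call leaves, and all groups share one seed-grown variety.

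Each array set a query RNA, labelled with Cy3, against control RNA of the same tissue and time, labelled with Cy5. On no-stress arrays the query was itself a control sample. The deposited value was a log2 ratio per spot. A positive value likely means more transcript in the query, since that follows the design, but the files do not state which dye is on top. All signs below rest on that reading. Stress effects are differences of log2 ratios, stress minus no stress, at the same tissue and time. A ratio holds no absolute level, so levels of different genes were not compared and the labelled tissue could not be checked against its markers.

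Starch is built in plastids from ADP-glucose. ADP-glucose pyrophosphorylase makes this precursor and is taken as the controlling step, and agpS2 and agpS3 encode forms of its large subunit. GBSS, the granule-bound starch synthase, extends the unbranched chains of amylose inside the granule. SBE1, a starch branching enzyme, adds the side branches of amylopectin. In leaves starch is made by day and broken down at night, while in roots it is a store fed by imported sucrose.

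The 4 genes did not move together. agpS3 lay below no stress in each of 18 comparisons by its mean and was called lower in 11 of them. SBE1 was called higher in cold and salt leaves at 9 and 27 h, and GBSS was called lower in several groups but higher in cold roots at 9 h. agpS2 was called in 2 comparisons, both higher and both in salt-treated roots. "Called" means an adjusted p under 0.05 in limma's moderated test, with Benjamini-Hochberg adjustment over all clones tested in the comparison. As tissues were measured in bulk, fewer cells of a type and less RNA per cell cannot be told apart.

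Counts of called clones are set against the share of all tested clones called in the same comparison. In cold leaves 1, 2 and 2 of 5 clones were called at 3, 9 and 27 h, where 17.2%, 22.7% and 21.8% of all clones tested were called. In heat-treated leaves 0, 0 and 1 of 5 were called, against 0.742%, 0.233% and 0.664% of all clones. In salt-treated leaves 0, 2 and 2 of 5 were called, against 0.892%, 7.86% and 12%. In cold roots 3, 2 and 2 of 5 clones were called at 3, 9 and 27 h, against 13.3%, 26.5% and 39.1%. In heat-treated roots 2 of 5, 1 of 4 and 3 of 5 were called, against 7.48%, 5.89% and 20.2%. In salt-treated roots 2 of 4, 1 of 5 and 1 of 5 were called, against 21.8%, 4.46% and 2.42%. Over the 88 tests of a member clone, in which GBSS enters with 2 clones, 8 were called higher and 19 lower. Their median log2 difference was -0.20. By clone it was -0.68 for agpS3, -0.55 and -0.48 for GBSS, 0.11 for agpS2 and 0.65 for SBE1. The median over all tested clones lay between -0.01 and 0.02 in each comparison. The 3 stresses of a tissue and time share the same 3 no-stress arrays, so their differences are not independent of one another. Where stress and no-stress arrays are said below not to overlap, the share of all clones separated in this way was not counted.

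**Figure D1:**
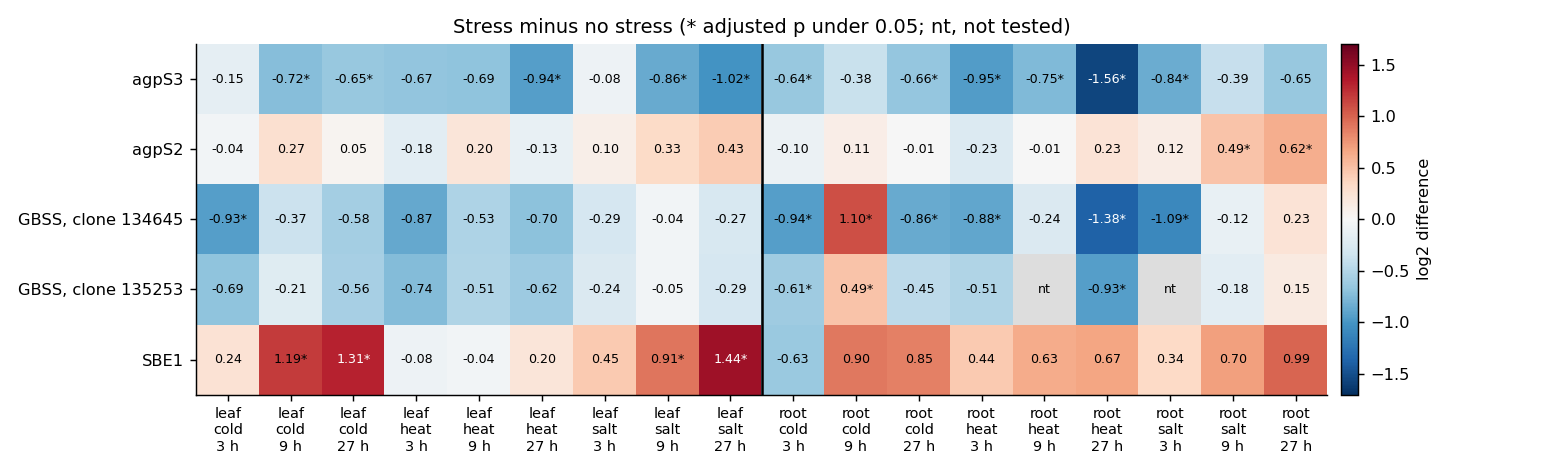
Log2 difference, stress minus no stress, of each starch synthesis clone (down) in 18 comparisons (across), leaf left of the black line and root right of it. Colour and number give the difference, a star marks a call, and nt marks the 2 comparisons in which GBSS clone 135253 was not tested. agpS3 is negative throughout, and SBE1 is positive at 9 and 27 h of cold and salt.

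agpS3 encodes a large subunit of ADP-glucose pyrophosphorylase and was the clone most often called lower. In leaves at 27 h it read -0.70, -0.50 and -0.71 in cold, -1.15, -0.75 and -0.89 in heat, and -0.74, -0.97 and -1.32 in salt, against 0.06, -0.01 and -0.03 without stress (log2 ratios, replicates 1 to 3). None of these stress arrays overlapped the no-stress arrays. The differences at 27 h were -0.65 ± 0.18 in cold (SE, n = 3 arrays per group, limma adjusted p = 0.0101), -0.94 ± 0.18 in heat (limma adjusted p = 0.0110) and -1.02 ± 0.18 in salt (limma adjusted p = 0.000279). The salt value corresponds to a fitted 0.493 times the no-stress ratio. The cold call at 27 h was lost with arrays scaled to 1 spread (-0.51, limma adjusted p = 0.0660).

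At 9 h agpS3 also fell in cold leaves, by 0.72 (limma adjusted p = 0.00414), and in salt-treated leaves, by 0.86 (limma adjusted p = 0.00293). At 3 h it read -0.28, 0.05 and -0.20 in cold leaves and 0.03, 0.05 and -0.29 in salt-treated leaves, against -0.01, -0.01 and 0.04 without stress. These were the 2 comparisons of agpS3 in which stress and no-stress arrays overlapped. In heat-treated leaves it already stood at -1.15, -0.17 and -0.68 at 3 h, a difference of -0.67 that was not called (limma adjusted p = 0.0797), and at 9 h the difference of -0.69 was not called either (limma adjusted p = 0.127). At 27 h of heat the call ended without any one of the no-stress replicates 1, 2 or 3 (limma adjusted p = 0.0687, 0.0540 and 0.0873), and with only the groups compared in the fit (limma adjusted p = 0.137). The 3 and 9 h heat differences were called with array weights (limma adjusted p = 0.0187 and 0.0154) and with arrays scaled to 1 spread (limma adjusted p = 0.0247 and 0.0178). Replicate 1 was the lowest leaf heat array of agpS3 at 3, 9 and 27 h. The green tissue clones described below had medians of -0.52, -0.37 and -0.42 on it, and their part was not tested.

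In roots agpS3 was lowest under heat at 27 h, with -1.69, -1.20 and -1.27, against 0.12, 0.17 and 0.23 without stress. That difference of -1.56 ± 0.21, a fitted 0.339 times the no-stress ratio, was the largest of any member in either direction (limma adjusted p = 1.45e-05). At 3 h of heat agpS3 read -1.30, -0.59 and -0.33, against 0.10, 0.23 and 0.28 without stress, and at 9 h it read -1.17, -0.67 and -0.58, against 0.01, 0.03 and -0.22 without stress. Replicate 1 was the lowest heat array at each of the 3 times, and on the same arrays the green tissue clones described below had medians of -0.97, -0.98 and -1.45, whose part in these values was not tested. The root heat differences at 3 and 9 h were -0.95 (limma adjusted p = 0.00689) and -0.75 (limma adjusted p = 0.0351). With only the groups compared in the fit both calls were lost (limma adjusted p = 0.0718 and 0.0546), and the 9 h call was lost from the first spot alone (-0.71, limma adjusted p = 0.0873). The 9 h heat call ended under 5 of 6 single-replicate omissions, all except heat replicate 3 (limma adjusted p of 0.0501 without heat replicate 2 to 0.140 without no-stress replicate 1).

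In cold roots agpS3 fell by 0.64 at 3 h (limma adjusted p = 0.0454) and by 0.66 at 27 h (limma adjusted p = 0.0154), and the 9 h difference of -0.38 was not called. The 3 h call ended under each omission except cold replicate 3 (limma adjusted p of 0.0745 without no-stress replicate 1 to 0.221 without cold replicate 2), and from the first spot alone (limma adjusted p = 0.0753). The 27 h call ended without cold replicate 1 or 2 or no-stress replicate 3 (limma adjusted p = 0.0567, 0.0734 and 0.0536). Salt lowered agpS3 in roots at 3 h, by 0.84 (limma adjusted p = 0.00575). The root salt differences of -0.39 and -0.65 at 9 and 27 h were not called. All 9 root stress groups lay wholly below their no-stress arrays for agpS3, where the 3 stresses of a time share the same no-stress arrays.

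**Figure D2:**
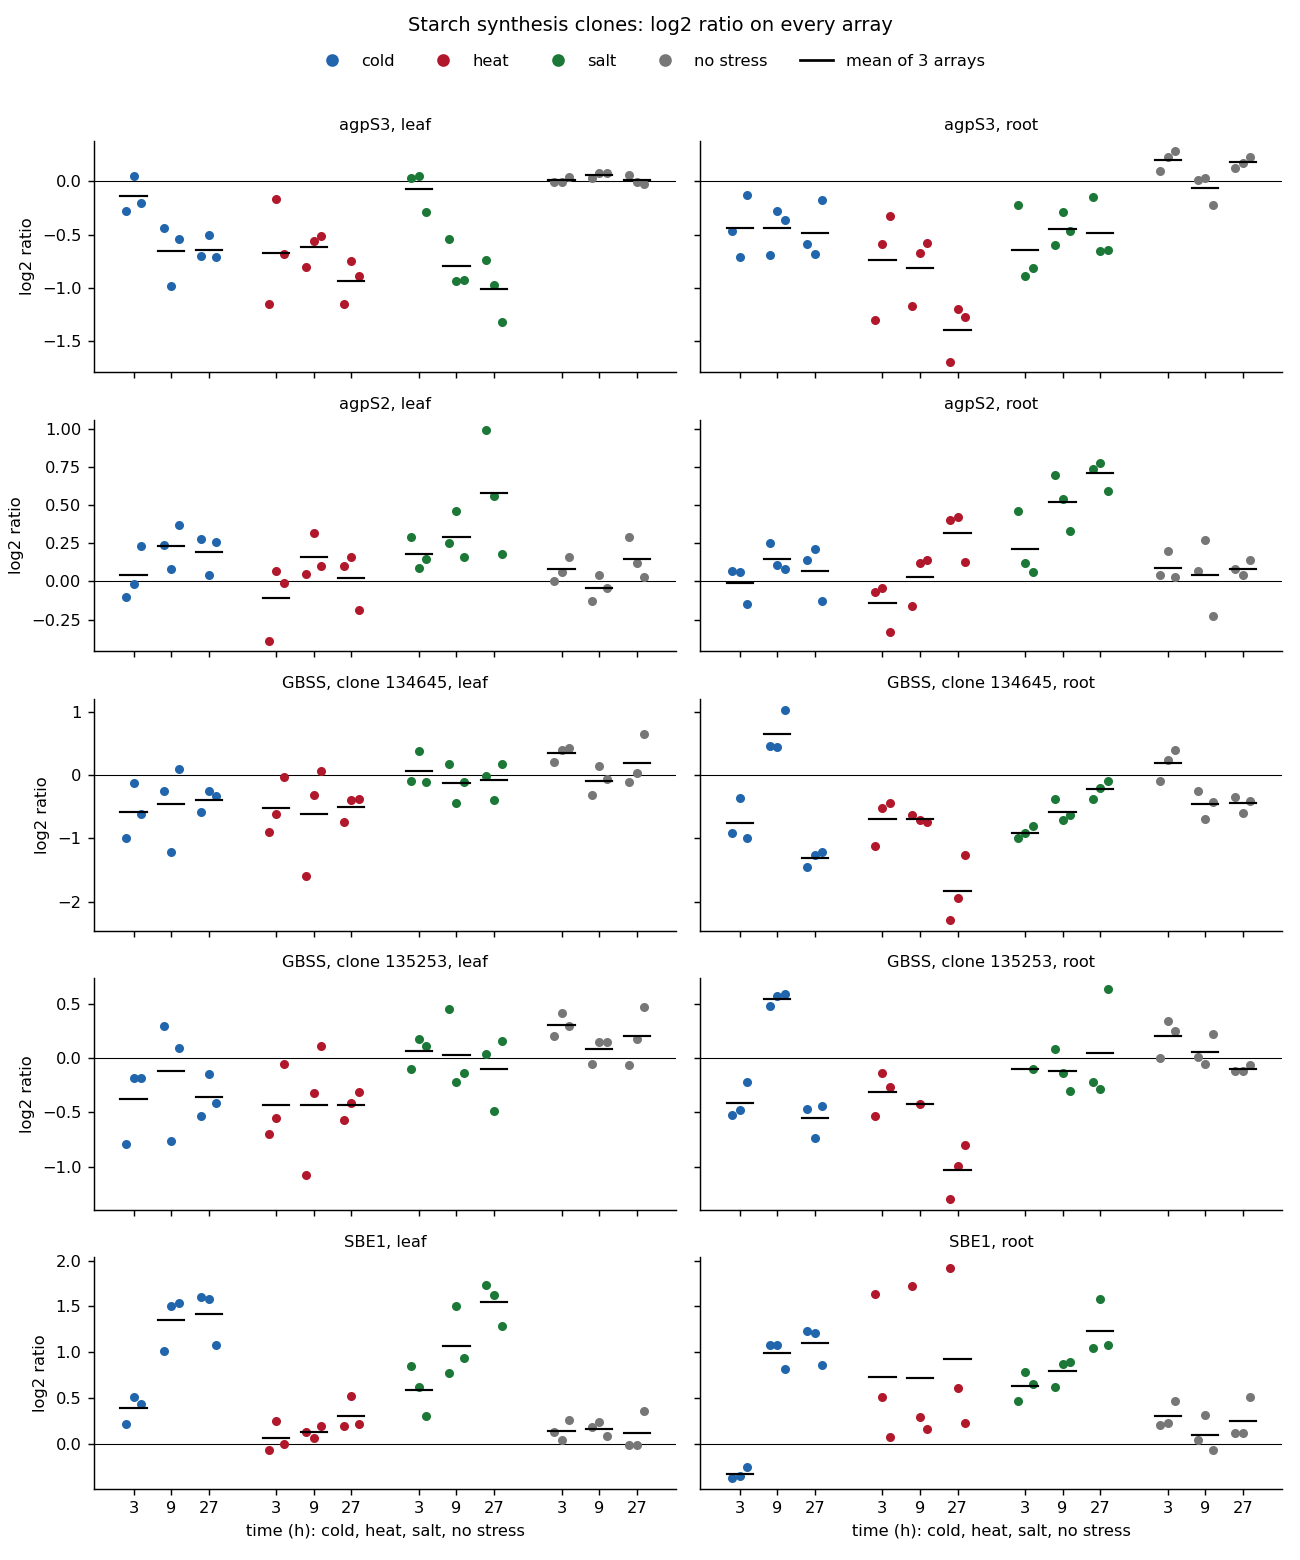
Log2 ratio (vertical axis) of each clone on every array, leaf at left and root at right, by treatment and time in h (horizontal axis). Points are arrays, coloured by treatment, and bars are group means of up to 3 arrays. The no-stress arrays of agpS3 lie between -0.22 and 0.28, and its heat-treated root arrays between -1.69 and -0.33.

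The clones most like agpS3 over the arrays came from GCVT and LOC102577529. GCVT, the T protein of the glycine decarboxylase complex of photorespiration, correlated with agpS3 at r = 0.87 over 72 arrays (Spearman's rho = 0.86, 680 clones compared). Within leaves r was 0.84 and within roots 0.90, and r was 0.84 without the 2 arrays farthest from the median of agpS3. The 2 clones of LOC102577529 followed, at r = 0.75 and 0.73. These correlations are descriptions, since the arrays of a group share a treatment and each array's clones share a hybridization.

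The green tissue list held 25 clones of 10 genes, mostly of photosynthesis and photorespiration, GCVT among them. It also held 2 clones of cy-F1, matched by the synonym FBPase alone and known as the cytosolic enzyme of sucrose synthesis, which took 14 of its calls. The median log2 ratio of the list per array correlated with agpS3 at r = 0.68 over 72 arrays, and at 0.64 over the 23 clones other than cy-F1. In leaves 5, 10 and 7 of the listed clones tested were called lower in cold at 3, 9 and 27 h (of 14, 15 and 15), 0 in heat, and 0, 4 and 5 of 14, 15 and 15 in salt. In roots 3 of 22, 12 of 23 and 18 of 24 were called lower in cold, 1 of 23, 2 of 24 and 15 of 24 in heat, and 1 of 23, 0 of 24 and 0 of 21 in salt. agpS3 was called lower in heat-treated roots at 3 and 9 h, in salt-treated roots at 3 h and in heat-treated leaves at 27 h, where at most 2 clones of the list were. Of all clones tested in these comparisons, 313 of 8974, 190 of 8906, 840 of 8780 and 22 of 9934 were called lower, in that order. The median log2 difference of the list's tested clones was -0.38, -0.45, -0.47 and -0.28, in the same order. Without cy-F1 the count lower was 8 of 13 in cold leaves at 9 h, 2 and 3 of 13 in salt-treated leaves at 9 and 27 h, 10 of 21 and 16 of 22 in cold roots at 9 and 27 h, and 0 and 13 of 22 in heat-treated roots at 9 and 27 h. Members of the list called higher numbered at most 2 in any comparison. Their part in the agpS3 values was not tested.

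agpS2 encodes another large subunit of the same enzyme and was not called at any time in cold or heat. Over the 18 stress arrays of cold and heat in leaves it stayed between -0.39 and 0.37, against -0.13 to 0.29 on the leaf no-stress arrays. In roots it read 0.70, 0.54 and 0.33 at 9 h of salt, against 0.07, 0.27 and -0.23 without stress, then 0.74, 0.78 and 0.59 at 27 h, against 0.08, 0.04 and 0.14. The salt arrays lay above the no-stress arrays at both times. The differences were 0.49 ± 0.13 at 9 h (limma adjusted p = 0.0322) and 0.62 ± 0.13 at 27 h (limma adjusted p = 0.00773).

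The 9 h call of agpS2 ended without salt replicate 1 or 2 or no-stress replicate 1 or 3 (limma adjusted p = 0.129, 0.0977, 0.105 and 0.208), and the 27 h call without no-stress replicate 1 (limma adjusted p = 0.0556). With only the groups compared in the fit the 9 h call was lost (limma adjusted p = 0.125). In salt-treated leaves at 27 h agpS2 read 0.99, 0.56 and 0.18, against 0.29, 0.12 and 0.03, and the difference of 0.43 was not called (limma adjusted p = 0.0666), but was with all 72 arrays in 1 fit (limma adjusted p = 0.0364) and with array weights (limma adjusted p = 0.00427). Its 95% interval of 0.12 to 0.74 overlapped the root interval of 0.35 to 0.90. The agpS2 and agpS3 clones correlated at r = -0.13 over 72 arrays. cDNA spots can bind transcripts of related genes, and cross-binding between these 2 clones was not tested. The clones most like agpS2 were 2 of HPL, a hydroperoxide lyase (r = 0.60 over 71 arrays and 0.57 over 72), and 1 of LOC102577637 (r = 0.58 over 70 arrays).

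GBSS, the amylose-making synthase, was read by 2 clones that followed each other at r = 0.88 over the 68 arrays with both values. The changes were smaller in clone 135253 in most groups. Clone 135253 lacked values on 4 root arrays (heat 9 h replicates 1 and 3, salt 3 h replicates 1 and 2), so it was not tested there. Its spot pair correlated at r = 0.73, below the 0.84 to 0.92 of the other member clones.

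In cold roots GBSS changed sign with time. Clone 134645 read -0.92, -0.36 and -0.99 at 3 h of cold, against -0.10, 0.24 and 0.40 without stress. It read 0.45, 0.44 and 1.03 at 9 h, against -0.25, -0.70 and -0.43, and -1.45, -1.27 and -1.21 at 27 h, against -0.35, -0.60 and -0.41. Cold arrays lay below no stress at 3 and 27 h and above it at 9 h. The differences were -0.94 at 3 h (limma adjusted p = 0.00262), 1.10 at 9 h (limma adjusted p = 0.000190) and -0.86 at 27 h (limma adjusted p = 0.00167), each ± 0.21 (SE, n = 3 arrays per group).

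Clone 135253 took the same signs. It read -0.52, -0.48 and -0.22 at 3 h of cold, 0.48, 0.57 and 0.59 at 9 h, and -0.47, -0.74 and -0.44 at 27 h, against 0.00, 0.34 and 0.25, then 0.01, -0.05 and 0.22, then -0.12, -0.12 and -0.06 without stress. Again the groups did not overlap at any of the 3 times. The differences were -0.61 (limma adjusted p = 0.0261), 0.49 (limma adjusted p = 0.0473) and -0.45 (limma adjusted p = 0.0501), and the last passed with replicate number as a block (limma adjusted p = 0.0327).

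The 3 h call of clone 135253 ended without cold replicate 1 or 2 or no-stress replicate 2 or 3 (limma adjusted p = 0.0978, 0.103, 0.130 and 0.0952), from the first spot alone (limma adjusted p = 0.158) and with all 72 arrays in 1 fit (limma adjusted p = 0.0719). Its 9 h call ended under every one of the 6 omissions (cold replicates 1, 2 and 3 and no-stress replicates 1, 2 and 3, limma adjusted p of 0.0558 to 0.161), and under the first spot alone the difference was 0.20 (limma adjusted p = 0.592). The 9 h call also ended with values needed on only 1 array, all 72 arrays in 1 fit, array medians subtracted, and arrays scaled to 1 spread (limma adjusted p = 0.0503, 0.116, 0.0511 and 0.347). With arrays scaled to 1 spread the 27 h difference of clone 134645 was -0.17 (limma adjusted p = 0.507).

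**Figure D3:**
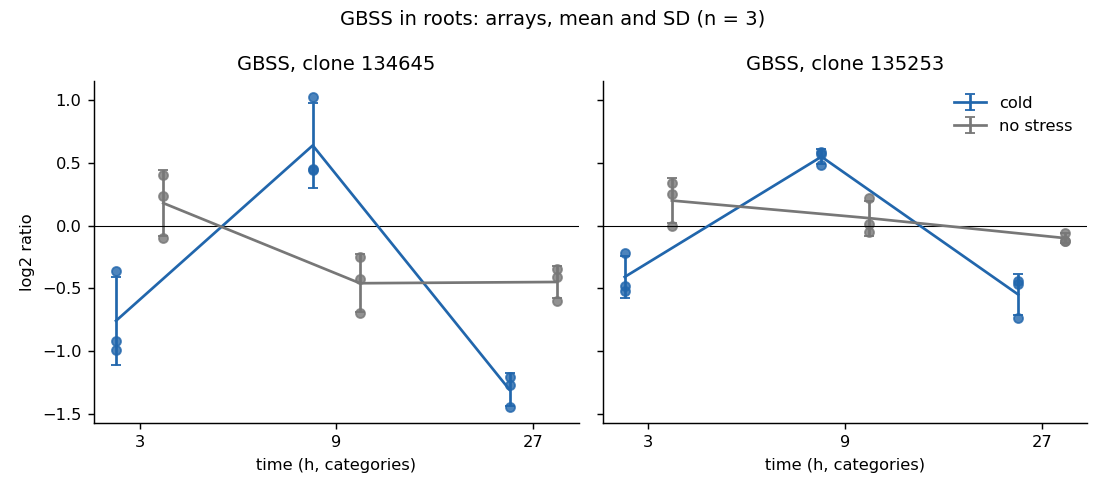
Log2 ratio (vertical axis) of the 2 GBSS clones in roots at 3, 9 and 27 h (horizontal axis, evenly spaced categories), cold in blue and no stress in grey. Points are arrays, lines join means, and bars are the SD of 3 arrays. Both clones stand above no stress at 9 h of cold and below it at 3 and 27 h.

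The 9 h departure was tested as the cold effect at 9 h minus the mean of those at 3 and 27 h, harvests that lie 24 h apart. That contrast was chosen with the sign change already known. In cold roots it was 2.0 ± 0.26 for clone 134645 (limma adjusted p = 5.31e-06) and 1.02 ± 0.22 for clone 135253 (limma adjusted p = 0.00420), while 6.57% of all clones were called. Both calls held under all 6 single-replicate omissions. Clone 135253 lost its call with the first spot alone (0.64, limma adjusted p = 0.242) and with arrays scaled to 1 spread (0.66, limma adjusted p = 0.108).

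No member clone tested was called in this contrast in the other groups. GBSS clone 135253 was not tested in heat-treated or salt-treated roots. Of all clones 1.94% were called in cold leaves, 0% in heat-treated leaves and 0.0220% in salt-treated leaves. In roots 0.0352% were called in heat and 0% in salt. In heat-treated roots clone 134645 gave 0.90 ± 0.26, which was not called (limma adjusted p = 0.427).

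Heat and salt lowered GBSS in roots at some times. At 27 h of heat clone 134645 read -2.29, -1.95 and -1.27, against -0.35, -0.60 and -0.41 without stress, and clone 135253 read -1.30, -0.99 and -0.80, against -0.12, -0.12 and -0.06. The differences were -1.38 ± 0.21 (limma adjusted p = 4.40e-05) and -0.93 ± 0.18 (limma adjusted p = 0.000885), and with only the groups compared in the fit the first was not called (limma adjusted p = 0.0513). At 3 h of heat clone 134645 fell by 0.88 (limma adjusted p = 0.00893), and clone 135253 gave -0.51 (limma adjusted p = 0.0832). The 3 h heat call was lost when heat replicate 1 or no-stress replicate 3 was omitted (limma adjusted p = 0.0509 and 0.0700), and with only the groups compared in the fit (limma adjusted p = 0.0660). Root heat replicate 1, the array set with the low green tissue medians given above, was the lowest of the 3 for clone 134645 at 3 and 27 h and for clone 135253 at the same times, and its part was not tested.

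At 3 h of salt clone 134645 read -1.0, -0.92 and -0.81, against -0.10, 0.24 and 0.40, a difference of -1.09 (limma adjusted p = 0.000482). At 27 h of salt its arrays read -0.38, -0.21 and -0.10, against -0.35, -0.60 and -0.41, and overlapped. The salt effect at 27 h minus that at 3 h was 1.32 ± 0.30 (limma adjusted p = 0.0144), in a contrast that called 3.03% of all clones. That call ended without salt replicate 2 or no-stress replicate 2 or 3 (limma adjusted p = 0.0781, 0.0949 and 0.0611).

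In leaves GBSS was lower on average in cold and heat. Clone 134645 read -0.99, -0.13 and -0.62 at 3 h of cold, against 0.21, 0.40 and 0.43, the only leaf time at which it was called (-0.93 ± 0.32, limma adjusted p = 0.0452). That call ended under 5 omissions, cold replicates 1 and 3 and no-stress replicates 1, 2 and 3 (limma adjusted p of 0.0760 to 0.234), from the first spot alone (limma adjusted p = 0.0729) and against 0 (-0.58, limma adjusted p = 0.0530). Clone 135253 at the same time gave -0.69 (limma adjusted p = 0.0628, and 0.0455 with the replicate block). On these cold arrays the green tissue medians were -0.94, -0.27 and -0.20 (replicates 1 to 3), and their part was not tested.

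Averaged over the 3 times, cold lowered clone 134645 in leaves by 0.63 (limma adjusted p = 0.00731) and clone 135253 by 0.49 (limma adjusted p = 0.00901), and heat by 0.70 (limma adjusted p = 0.0176) and 0.63 (limma adjusted p = 0.00803). The green tissue median correlated with the 2 clones at r = 0.56 and 0.53 within leaves and at 0.32 for each within roots. Of its leaf clones 5, 10 and 7 were called lower in cold and 0 in heat, and their part in the GBSS values was not tested. Leaf heat at 9 h ranged widely, with -1.60, -0.31 and 0.06 in clone 134645. Heat replicate 1 was the lowest of the 3 leaf heat arrays for both clones at each time. On it the green tissue median was -0.52, -0.37 and -0.42 at 3, 9 and 27 h, against -0.41 to -0.01 on the other leaf heat arrays. Its part was not tested. The heat means lost their call without heat replicate 1 (limma adjusted p = 0.167 and 0.0898) and without no-stress replicate 3 (limma adjusted p = 0.109 and 0.0610). Clone 134645 also lost it without no-stress replicate 2 (limma adjusted p = 0.0623), and the cold mean of clone 135253 ended without no-stress replicate 3 (limma adjusted p = 0.0511).

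The clones most like both GBSS clones were 2 of LOC102577923 (r = 0.69 for each with clone 134645 over 72 arrays, and 0.70 for each with clone 135253 over 68) and 1 of LOC102606065 (r = 0.64 and 0.61, a different clone in each case). Within leaves and within roots the values for LOC102577923 lay between 0.62 and 0.75. GBSS correlated with agpS3 at r = 0.50 and 0.55 for its 2 clones, and with SBE1 at -0.12 and -0.11.

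SBE1, the branching enzyme, was higher in leaves under cold and salt. In cold leaves it read 0.21, 0.51 and 0.43 at 3 h, then 1.01, 1.50 and 1.54 at 9 h, then 1.60, 1.58 and 1.08 at 27 h. In salt-treated leaves it read 0.85, 0.62 and 0.30, then 0.77, 1.50 and 0.94, then 1.73, 1.62 and 1.29. The 9 leaf no-stress arrays lay between -0.02 and 0.36, below every cold and salt array of 9 and 27 h. The differences were 1.19 (limma adjusted p = 1.66e-05) and 1.31 (limma adjusted p = 9.15e-06) in cold at 9 and 27 h, and 0.91 (limma adjusted p = 0.00162) and 1.44 (limma adjusted p = 2.63e-06) in salt, each ± 0.18.

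The 27 h salt value is a fitted 2.71 times the no-stress ratio, the largest rise of any member. All 4 leaf calls of SBE1 held under each of the 6 single-replicate omissions. The cold effect in leaves at 27 h minus 3 h was 1.07 ± 0.26 (limma adjusted p = 0.0262), in a contrast that called 1.73% of all clones. That call ended under 5 omissions, cold replicates 1 and 2 and no-stress replicates 1, 2 and 3 (limma adjusted p of 0.0624 to 0.138), under the first spot alone (0.91, limma adjusted p = 0.109), with all 72 arrays in 1 fit (limma adjusted p = 0.151) and with arrays scaled to 1 spread (0.82, limma adjusted p = 0.240). The same contrast in salt was 0.99 and was not called (limma adjusted p = 0.164, with 0.138% of all clones called).

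No heat effect on SBE1 in leaves was called. It read -0.07, 0.25 and 0.00 at 3 h of heat, then 0.13, 0.06 and 0.19 at 9 h, then 0.19, 0.52 and 0.21 at 27 h, overlapping no stress at each time. The mean heat effect was 0.02, with a 95% interval of -0.19 to 0.24. Against heat, the mean effect of cold was higher by 0.89 ± 0.10 (limma adjusted p = 4.27e-08) and that of salt by 0.91 ± 0.10 (limma adjusted p = 8.93e-08). Cold minus salt was -0.02, with a 95% interval of -0.23 to 0.20.

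In roots SBE1 under cold changed sign between 3 h and the later times. It read -0.38, -0.36 and -0.26 at 3 h of cold, against 0.20, 0.22 and 0.47 without stress. It read 1.08, 1.08 and 0.82 at 9 h, against 0.04, 0.31 and -0.07, and 1.23, 1.21 and 0.86 at 27 h, against 0.12, 0.11 and 0.51. Cold and no-stress arrays did not overlap at any of the times. The differences were -0.63 (limma adjusted p = 0.260), 0.90 (limma adjusted p = 0.0574) and 0.85 (limma adjusted p = 0.0542), each ± 0.35 and none called, where the block on replicate number gave 0.0447 at 9 h and 0.0428 at 27 h as limma adjusted p. The effect at 27 h minus 3 h was 1.48 ± 0.49 and was called (limma adjusted p = 0.0315, 21.8% of all clones called). That call ended under 5 omissions, cold replicates 1 and 2 and no-stress replicates 1, 2 and 3 (limma adjusted p of 0.0766 to 0.102), and with arrays scaled to 1 spread (0.97, limma adjusted p = 0.121).

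The wide root error of SBE1 came with 3 arrays. Root heat replicate 1 read 1.63, 1.72 and 1.92 at 3, 9 and 27 h, while replicates 2 and 3 lay between 0.07 and 0.61. On the same replicate 1 arrays the median of the green tissue clones was -0.97, -0.98 and -1.45, against -0.61 to 0.02 on the other 6 root heat arrays. Its part in the root heat results was not tested. With these 3 arrays dropped from the fit, a setting added after the values were seen, SBE1 was called in cold roots at 3 h (lower, limma adjusted p = 0.00801), 9 h (higher, limma adjusted p = 0.000101) and 27 h (higher, limma adjusted p = 0.000128), and in salt-treated roots at 9 h (limma adjusted p = 0.00914) and 27 h (limma adjusted p = 0.000652). With only the groups compared in the fit the same 5 values were called (limma adjusted p of 0.00294 to 0.0333). The differences themselves do not change under either setting.

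In salt-treated roots SBE1 read 0.46, 0.78 and 0.65 at 3 h, then 0.62, 0.87 and 0.89 at 9 h, then 1.04, 1.58 and 1.08 at 27 h, above the no-stress arrays at 9 and 27 h. With all root arrays in the fit the differences of 0.34, 0.70 and 0.99 were not called (limma adjusted p = 0.521, 0.291 and 0.155).

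**Figure D4:**
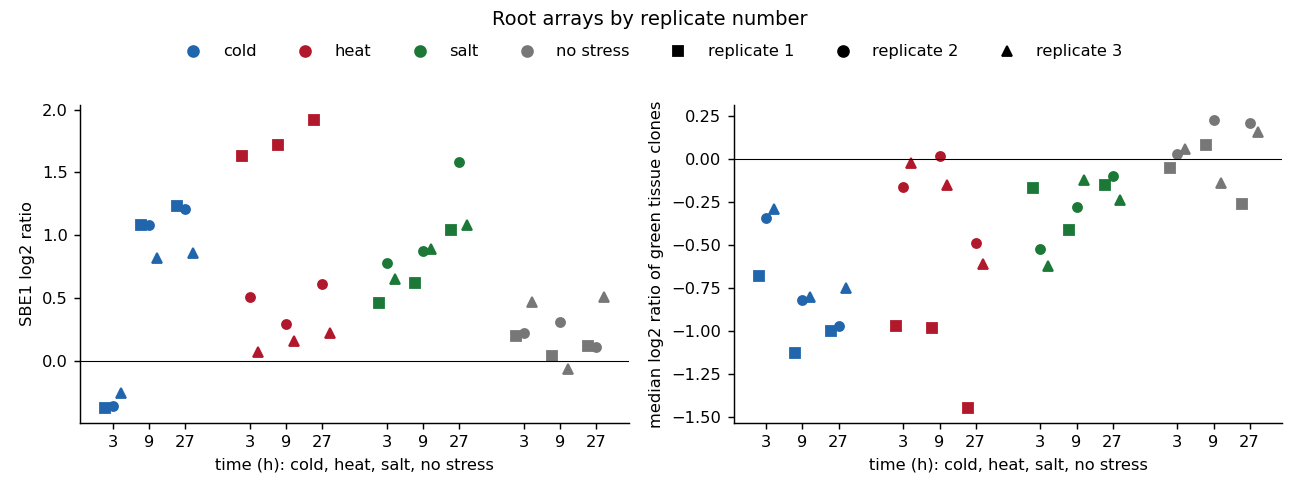
Root arrays by treatment and time in h (horizontal axes), with the symbol giving the replicate number. The left panel shows the SBE1 log2 ratio and the right panel the median log2 ratio of the green tissue clones. Replicate 1 of root heat stands at 1.63 to 1.92 for SBE1 and at -1.45 to -0.97 for the green tissue clones.

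The clones most like SBE1 were 1 each of LOC102577704 (r = 0.70 over 72 arrays), LOC102577712 (r = 0.67 over 63 arrays) and ChtA1 (r = 0.65 over 72 arrays). For LOC102577704 the likeness was 0.92 within leaves and 0.41 within roots, and for ChtA1 0.87 and 0.41. SBE1 correlated with agpS3 at r = -0.48, with agpS2 at 0.49 and with the green tissue median at -0.56, all over 72 arrays.

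Averaged over the 3 times, agpS3 was called lower in all 6 combinations of tissue and stress. In leaves its mean effect was -0.50 ± 0.10 in cold (limma adjusted p = 0.000242), -0.77 ± 0.10 in heat (limma adjusted p = 1.92e-05) and -0.65 ± 0.10 in salt (limma adjusted p = 3.06e-05). In roots it was -0.56 ± 0.12 in cold (limma adjusted p = 0.000489), -1.09 ± 0.12 in heat (limma adjusted p = 2.67e-07) and -0.63 ± 0.12 in salt (limma adjusted p = 0.000402). These 6 calls held under each single-replicate omission. The clones called were 4, 3 and 3 of 5 in leaves under cold, heat and salt, against 41.8%, 8.83% and 23.2% of all clones. In roots they were 1 of 5, 3 of 4 and 4 of 4, against 43.3%, 34.9% and 26.6%.

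SBE1 averaged 0.91 higher in cold leaves (limma adjusted p = 4.24e-08) and 0.93 higher in salt-treated leaves (limma adjusted p = 9.32e-08). Its root means were 0.37 in cold (limma adjusted p = 0.138, and 0.0016 with only the groups compared in the fit), 0.58 in heat (limma adjusted p = 0.0264) and 0.67 in salt (limma adjusted p = 0.0139). The root heat mean was 0.10 without heat replicate 1 (limma adjusted p = 0.533) and also ended without no-stress replicate 1 or 2 (limma adjusted p = 0.0905 and 0.0673), with only the groups compared in the fit (limma adjusted p = 0.0948), with array weights (0.40, limma adjusted p = 0.0646) and with arrays scaled to 1 spread (limma adjusted p = 0.0524). The root salt mean ended without salt replicate 2 or no-stress replicate 1 (limma adjusted p = 0.0733 and 0.0592).

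agpS2 averaged 0.29 higher in salt-treated leaves (limma adjusted p = 0.0176) and 0.41 higher in salt-treated roots (limma adjusted p = 0.000231). The leaf mean ended without salt replicate 1 or 2 or no-stress replicate 2 or 3 (limma adjusted p = 0.0987, 0.0591, 0.0502 and 0.0591) and with arrays scaled to 1 spread (limma adjusted p = 0.101), and the root mean held under all 6 omissions. GBSS clone 134645 averaged -0.83 in heat-treated roots (limma adjusted p = 6.53e-06), which held under all 6. Its salt mean in roots of -0.33 (limma adjusted p = 0.0439) ended under every omission (salt replicates 1, 2 and 3 and no-stress replicates 1, 2 and 3, limma adjusted p of 0.0523 to 0.154), with all 72 arrays in 1 fit (limma adjusted p = 0.127) and with arrays scaled to 1 spread (-0.16, limma adjusted p = 0.208). Its cold mean in roots of -0.23 was not called (limma adjusted p = 0.124).

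**Figure D5:**
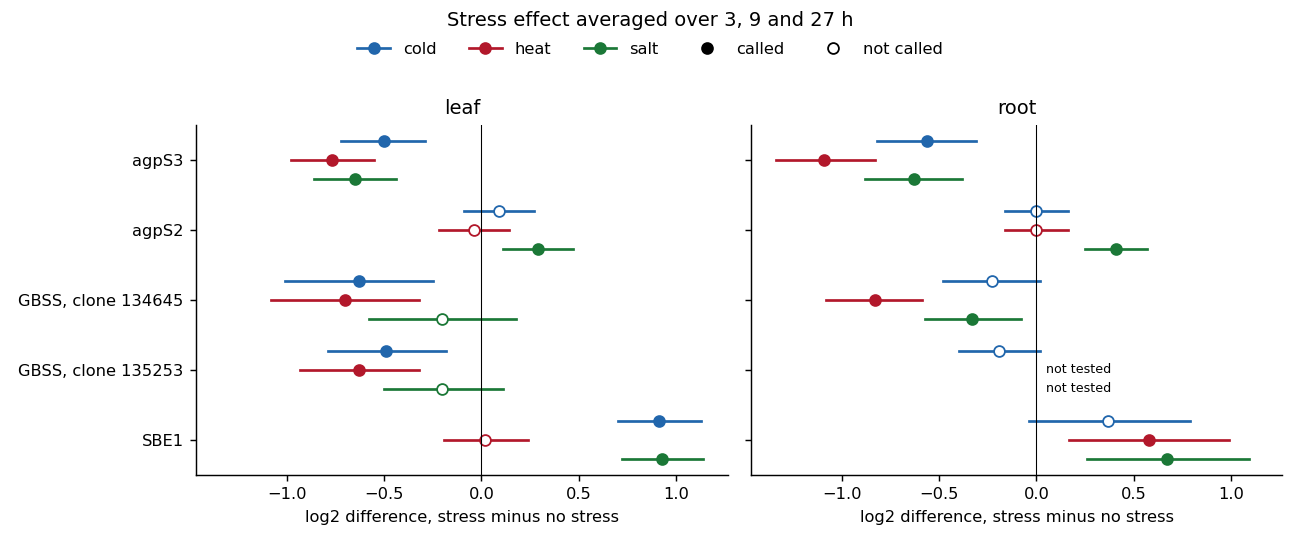
Mean stress effect over 3, 9 and 27 h, as log2 difference from no stress (horizontal axis), for each clone in leaf (left) and root (right). Bars are 95% intervals from the limma fit, filled points were called and open points were not. agpS3 is called lower in all 6 cases, and agpS2 is called higher under salt in both tissues.

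Between stresses, the members' counts are read against the same contrasts over all clones. In leaves cold minus heat was called for 2 of 5 clones, against 46.9% of all clones, salt minus heat for 4 of 5, against 28.8%, and cold minus salt for 0, against 23.6%. In roots cold minus heat was called for 2 of 4, against 55.1%, salt minus heat for 3 of 4, against 42.3%, and cold minus salt for 1 of 4, against 47.1%. Heat lowered agpS3 further than cold in roots (cold minus heat 0.52, limma adjusted p = 0.000744) and further than salt (salt minus heat 0.46, limma adjusted p = 0.00398). The second of these ended without heat replicate 1 (limma adjusted p = 0.0770).

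For GBSS clone 134645 in roots cold minus heat was 0.60 (limma adjusted p = 0.000114) and salt minus heat 0.51 (limma adjusted p = 0.00121). agpS2 in roots was higher in salt than in cold (cold minus salt -0.41, limma adjusted p = 7.29e-05) and than in heat (salt minus heat 0.41, limma adjusted p = 8.99e-05). In leaves agpS2 was also higher in salt than in heat, by 0.33 (limma adjusted p = 0.00605). SBE1 in roots gave -0.20 for cold minus heat (limma adjusted p = 0.406), which became 0.28 and called without heat replicate 1 (limma adjusted p = 0.0265).

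In leaves salt minus heat was also called for both GBSS clones, at 0.50 (limma adjusted p = 0.0438) and 0.43 (limma adjusted p = 0.0294), and cold minus heat for agpS3, at 0.26 (limma adjusted p = 0.0406). Leaving out heat replicate 1 ended all 3 calls (limma adjusted p = 0.345, 0.219 and 0.373). Heat replicate 2 and each salt replicate, except replicate 2 for clone 135253, also ended the GBSS calls (limma adjusted p of 0.0528 to 0.121), as did array weights (limma adjusted p = 0.128 and 0.102), and that of clone 134645 ended with only the groups compared in the fit (limma adjusted p = 0.0622). The agpS3 call also ended without cold replicate 1, 2 or 3 or heat replicate 3 (limma adjusted p of 0.0605 to 0.0759), and from the first spot alone, with only the groups compared and with all 72 arrays in 1 fit (limma adjusted p = 0.0994, 0.0934 and 0.0594).

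With all 72 arrays in the fit, root and leaf effects averaged over times were not called different for any member clone tested. GBSS clone 135253 was tested in cold only. In cold, heat and salt, 20.3%, 1.89% and 4.33% of all clones were called in these contrasts. The lowest adjusted p was that of SBE1 in cold, -0.54 with a 95% interval of -1.01 to -0.07 (limma adjusted p = 0.0923). That difference was called with only the groups compared in the fit (limma adjusted p = 0.00277), with array weights (-0.60, limma adjusted p = 0.0100) and with the stress arrays tested against 0, without the no-stress arrays (-0.47, limma adjusted p = 0.0196). SBE1 in heat gave 0.55 (limma adjusted p = 0.240) and was called without root heat replicate 3 (0.87, limma adjusted p = 0.00995) and against 0 (0.63, limma adjusted p = 0.00793), while without root heat replicate 1 it was 0.07 and not called. Against 0 GBSS clone 134645 was called too, at -0.53 in heat and -0.52 in salt (limma adjusted p = 0.0235 and 0.0186). For agpS3 in cold the root minus leaf difference was -0.06, with a 95% interval of -0.39 to 0.27. The effect at 27 h minus 3 h was called for no member in heat-treated leaves, with 0% of all clones called, or in heat-treated roots, with 0.172%.

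Without stress, where control RNA met control RNA, no member clone was called against 0 in any of 6 tests of 5 clones by limma, and 2 of these 30 values had an unadjusted p under 0.05. The shares of all clones called were 0.0613%, 0.830% and 0.00985% in leaves and 5.11%, 3.49% and 1.47% in roots at 3, 9 and 27 h. The member farthest from 0 was GBSS clone 134645 in roots, at -0.46 at 9 h (limma adjusted p = 0.0718) and -0.45 at 27 h (limma adjusted p = 0.112). Clone 135253 stood at 0.06 and -0.10 on the same arrays.

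Other genes of starch and sucrose metabolism on the array were few. Their counts of calls are pooled over the 18 comparisons, in which 0.233% to 39.1% of all clones tested were called. The counts were not tested against those shares. The starch breakdown list had 5 clones of 3 genes, with 19 calls higher and 5 lower in 69 tests. R1, the glucan water dikinase that opens starch to breakdown, was higher in both clones at 27 h in cold leaves (0.97 and 1.22). Both were also higher at 27 h in salt-treated leaves (1.05 and 1.16) and heat-treated roots (0.62 for each). In salt-treated roots both were higher at 9 h (0.58 and 0.70) and 27 h (0.58 and 0.55). In cold roots at 9 h both R1 clones were lower (-0.70 for each, limma adjusted p = 0.000812 and 0.000243). Cold leaves at 9 h gave -0.59 in R1 clone 161141 (limma adjusted p = 0.0256) and -0.49, not called, in clone 137053. AMYA1, an alpha-amylase, was higher in cold leaves at 3, 9 and 27 h in clone 153337 (1.36, 1.72 and 0.98). That clone was also higher at 9 h in salt-treated leaves (1.14), salt-treated roots (1.08) and heat-treated roots (0.78). At 27 h it was higher in heat-treated roots (1.15). In cold roots that clone was lower at 3 h (-0.63, limma adjusted p = 0.0449) and higher at 9 h (0.92, limma adjusted p = 0.00130). STP-1, a starch phosphorylase, was called once, lower in cold leaves at 9 h (-0.96, limma adjusted p = 0.000363).

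GBSS-II, another starch synthase, had 2 clones and 4 calls in 36 tests, 1 higher and 3 lower. Both clones were lower in cold roots at 27 h (-0.87 and -0.49). UDPGP, the UDP-glucose pyrophosphorylase that links sucrose to hexose phosphates, had 2 calls in 36 tests, both lower and both in clone 136672. On the sucrose list of 7 clones of 5 genes, 11 tests of 99 were called higher and 5 lower. SS16, a sucrose synthase, took 10 of those higher calls, among them 1.26 and 1.32 in cold leaves at 9 h. Another SS16 clone, 134519, gave 0.19 there and was not called (limma adjusted p = 0.258). In salt-treated leaves at 9 and 27 h it gave 0.20 and 0.21, not called, where the other SS16 clones were. It was called in cold leaves at 27 h (0.47, limma adjusted p = 0.0102). InvCD141, an invertase, was lower in salt-treated leaves at 9 and 27 h (-1.51 and -1.74). It was also lower in cold leaves at 9 h (-1.23, limma adjusted p = 0.00670), and higher in cold roots at 27 h (1.73, limma adjusted p = 0.00158). InvCD111 and PAIN-1, invertases too, were each called once and lower.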

How the data were processed

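Query and control RNA were hybridized together on 72 2-colour cDNA arrays. Each deposited value is a log2 ratio of a spot, already processed by the authors. Their background correction, normalization and spot filter were not stated in any label or header. Array medians lay between 0 and 0.014, and 15580 to 20545 spots per array had a value. The number of arrays limits the precision.

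The 2 spots of a clone were averaged. Spots were paired by a print layout inferred from annotation and correlation (15360 pairs). The median correlation of the 2 spots was 0.93 for the 905 annotated clones and 0.8 for the others. As the layout was inferred from these data, that correlation is not an independent check of it. In the platform annotation updated through RefSeq, 815 annotated clones had 1 gene symbol and 90 several or none. limma 3.58.1 in R 4.3.3 was fitted per tissue on 36 arrays in 12 groups. Clones needed a value on at least 2 arrays of each group compared, which left 8780 to 9934 clones in the single-time comparisons. Alternatives were the first spot, other filters, other sets of arrays in the fit, a replicate block, array weights, a test against 0, other scalings, a robust prior and leaving out each replicate. Tests are two-sided. The procedure was tested on simulated data for 1 comparison, cold leaves at 3 h, with known log2 changes of 1 or 2. The draws were independent between arrays, and changes under 1 were not simulated. SE and 95% intervals are from the fit, and SD is given where named.

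The member genes, gene lists and contrasts were chosen with earlier results of these data known. All member clones are described. From each list at most 4 genes with the most calls are named, and for likeness the 3 clones of highest Pearson r over at least 60 arrays.

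Replicate numbers come from the sample titles, and no label says that they mark a shared day. Of 54 same-numbered stress and no-stress pairs, 45 had a correlation of deviations over 0.1 (range -0.06 to 0.52), and all 3 pairs did in 11 of 18 comparisons, among them cold roots at each time and cold leaves at 3 and 27 h. Blocked values are printed there where the call changes.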

Additional observations from a re-analysis of the deposited data

Results flagged for a closer look

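5 called contrasts show an effect that differs between times of the same stress and tissue. SBE1 had a cold effect at 27 h minus 3 h of 1.07 in leaves and 1.48 in roots. GBSS clone 134645 had a salt effect in roots at 27 h minus 3 h of 1.32. In cold roots, the effect at 9 h minus the mean of 3 and 27 h was 2.0 for GBSS clone 134645 and 1.02 for GBSS clone 135253.

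In 2 cases all 3 root arrays moved one way against the no-stress mean and all 3 leaf arrays the other way, and the difference at that time was not tested. For SBE1 at 3 h of cold the root effect minus the leaf effect was -0.87. For GBSS clone 134645 at 27 h of salt it was 0.49.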

How the results depend on the processing

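The count of starch synthesis clones called, 3 times together, was 5 of 15 in leaf cold, 1 of 15 in leaf heat, 4 of 15 in leaf salt, 7 of 15 in root cold, 6 of 14 in root heat and 4 of 14 in root salt. The share of all clones called is given above for the first fit only. A count that changes with the setting is therefore not shown to be particular to the members. Against 0 instead of the no-stress arrays, leaf heat gave 3, leaf salt 7, root cold 11, root heat 11 and root salt 10. With only the groups compared in the fit, leaf heat gave 0, root cold 11 and root heat 2. Leaf heat gave 3 with array weights and 5 with arrays scaled to 1 spread, and root cold gave 4 from the first spot alone. Dropping the root heat replicate 1 arrays, or all root heat arrays, both chosen after seeing the data, gave 11 in root cold and 7 in root salt. Leaving out 1 replicate gave counts of 4 to 6 for leaf cold, and 0 to 2 for leaf heat (0 without no-stress replicate 1, 2 or 3, and 2 without heat replicate 2), 4 to 5 in leaf salt, 3 to 6 in root cold (3 without cold replicate 1 or 2 or no-stress replicate 3, 4 without no-stress replicate 2), 4 to 7 in root heat and 2 to 4 in root salt (2 without no-stress replicate 1). The counts not named here stayed within 1.5 times the count first given. Of 27 called values at a single time, 17 kept their call under every single-replicate omission.

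No called value took the opposite sign under any setting run. A pair of values that were not called were called with the other sign elsewhere. GBSS clone 134645 in root cold at 27 h minus 3 h was 0.08 and became -0.55 against 0, where its no-stress mean was 0.18 at 3 h and -0.45 at 27 h. SBE1 in roots, cold minus heat, was -0.20 and became 0.28 without heat replicate 1 (-0.53 to 0.28 over the single-replicate omissions). The replicate block made 4 values called, all given above, and changed no other call, so that root cold gave 10 and leaf cold 6. Scaling to 1 spread shrinks arrays of wide spread by construction, and the cause of the other changes was not tested. Whether a value was present on all 3 arrays, on 1 or more, a robust prior and subtracting array medians each changed at most 2 values.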
